A study of Mus musculus with 8 samples.

Results

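The regions described here are sites where histone H3 acetylated at lysine 9 (H3K9ac) was called as a peak in opposite treatment arms of 2 leukaemia-prone mouse genotypes, with curcumin in *GFI1-36N* and without it in *GFI1-KD*. The peaks of the 6 deposited H3K9ac lists were merged wherever they shared at least 1 bp. A merged region was kept when it held a peak in the *GFI1-36N* curcumin and the *GFI1-KD* no curcumin lists and none in the *GFI1-36N* no curcumin or the *GFI1-KD* curcumin list. This left 2635 regions of the 57897 with a peak in any of these 4 lists (4.55%), and of 64462 merged regions in all. Below they are called opposite sites.

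The libraries came from bone marrow (BM) cells of *NUP98-HOXD13* transgenic C57BL/6 mice, a model of myelodysplastic syndrome in which every group, controls included, carries the fusion transgene. *GFI1-36S* is the common form of the transcription factor GFI1, *GFI1-36N* carries asparagine in place of serine at amino acid 36, and *GFI1-KD* has reduced expression. Treated mice received 20 mg/kg curcumin, an inhibitor of histone acetyltransferases, by weekly intraperitoneal injection, and control mice received DMSO. Each of the 6 groups has 1 library, so the treatment, the mouse and the library cannot be told apart and no test across mice was possible. The names of the *GFI1-36N* lists carry +ki for the control and kiki for the curcumin library, so that pair also differs in this mark of the allele. For *GFI1-36S*, the treatment in each list's name is the reverse of that in the label of its sample, and groups are those of the labels.

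H3K9ac is placed by acetyltransferases and marks active promoters and enhancers. GFI1 binds DNA through zinc fingers and turns genes off together with enzymes that strip acetyl and methyl groups from histones, among them LSD1. It is known for its roles in stem cell quiescence and in making granulocytes. Its paralog GFI1B acts in the erythroid and megakaryocyte lineages. BM mixes all of these lineages, so in bulk lists fewer cells of a type and less acetylation per cell cannot be told apart.

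The windows printed next show where in the genome such sites lay. They belong to 6 of the genes named below and run 100 bp on each side of the summit, on the plus strand of GRCm38.p6 (mm10, RefSeq sequence), outside exons. For each gene the strongest opposite site whose window held one of the 9 short motifs described further below was taken, and capitals mark the motif. The *Zfp111* window lies at its promoter and holds a RUNX core and an E-box. The other windows lie in introns of the genes they are named for.

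*Zfp111*, chr7:24207773-24207973: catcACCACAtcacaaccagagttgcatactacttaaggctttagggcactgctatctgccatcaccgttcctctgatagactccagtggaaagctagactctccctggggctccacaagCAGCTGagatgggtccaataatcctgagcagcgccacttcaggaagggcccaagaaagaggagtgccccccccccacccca
*Gramd1b*, chr9:40414870-40415070: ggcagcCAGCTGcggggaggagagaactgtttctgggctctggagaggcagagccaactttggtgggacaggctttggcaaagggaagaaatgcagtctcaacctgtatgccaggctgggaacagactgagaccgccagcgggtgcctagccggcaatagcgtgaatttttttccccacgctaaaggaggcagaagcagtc
*Gata1*, chrX:7969291-7969491: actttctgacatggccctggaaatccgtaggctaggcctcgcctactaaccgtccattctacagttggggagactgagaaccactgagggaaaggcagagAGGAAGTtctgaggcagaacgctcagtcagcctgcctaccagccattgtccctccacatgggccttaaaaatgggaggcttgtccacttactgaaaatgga
*Myb*, chr10:21151370-21151570: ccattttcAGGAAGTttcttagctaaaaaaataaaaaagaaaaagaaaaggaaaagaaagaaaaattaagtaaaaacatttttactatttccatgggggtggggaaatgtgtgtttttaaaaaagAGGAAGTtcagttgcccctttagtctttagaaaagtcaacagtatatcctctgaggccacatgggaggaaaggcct
*Erg*, chr16:95438436-95438636: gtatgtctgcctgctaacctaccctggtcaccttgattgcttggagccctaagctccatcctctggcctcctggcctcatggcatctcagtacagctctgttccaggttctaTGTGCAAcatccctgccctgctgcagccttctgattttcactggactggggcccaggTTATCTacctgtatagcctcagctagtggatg
*Fli1*, chr9:32488045-32488245: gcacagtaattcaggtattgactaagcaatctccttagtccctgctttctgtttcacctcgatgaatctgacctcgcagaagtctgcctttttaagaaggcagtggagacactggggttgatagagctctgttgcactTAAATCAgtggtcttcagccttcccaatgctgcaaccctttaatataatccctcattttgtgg

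In *Gata1* the capitals, an ETS core, begin at the summit itself. In *Myb* both marked stretches are ETS cores. In *Erg* the first is a C/EBP element and the second a GATA core read on the other strand. In *Fli1* the marked stretch is the core bound by GFI1.

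Most opposite sites were low and narrow. Their fold enrichment was the authors' ratio of the ChIP signal at a summit to the background estimated for it. The control behind that background is not given in the sources used here. The fold had a median of 3.63 in *GFI1-36N* curcumin (range 2.10 to 18.3) and of 3.58 in *GFI1-KD* no curcumin (2.08 to 19.4). Ranked among the peaks of the same list, where 100 is the highest, the medians were the 34.3 and the 28.6 percentile. Regions with a peak in all 4 lists had median folds of 10.6 and 10.3. Whole fragments at the summit could be recovered from the fold and its p, and the median opposite site held 20 fragments in *GFI1-36N* curcumin and 27 in *GFI1-KD* no curcumin. The background, recovered likewise, was 4.78 up to the upper quartile of sites in *GFI1-36N* curcumin, the lowest value of that list. In *GFI1-KD* no curcumin it was 5.15, again the lowest of the list, up to the median. Among such sites the fold thus varied with the fragments alone. The median width was 566 bp. Both lists placed 1708 of the sites (64.8%) under the 50th percentile and 178 (6.76%) above it. Only 75 sites reached a fold of 5 in both lists, 9 reached 8 and 5 reached 10. The sites were chosen by the presence of a peak in these lists, so their heights there are a description and not a result.

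**Figure D1:**
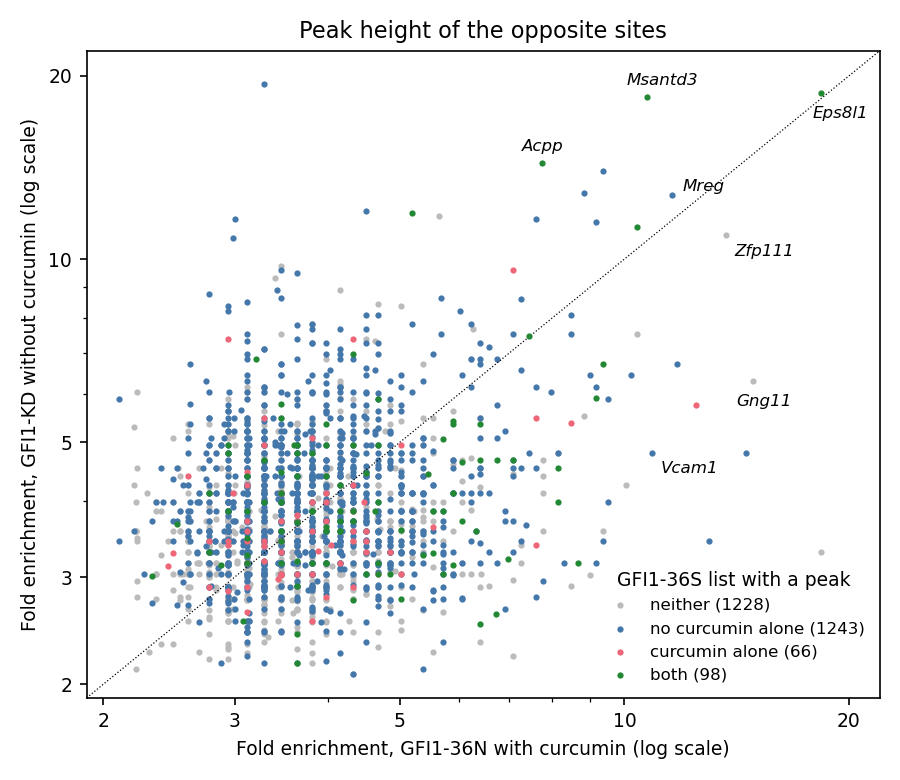
Fold enrichment of the 2635 opposite sites in the *GFI1-36N* curcumin list (x axis) and the *GFI1-KD* no curcumin list (y axis), both on log scales and not normalized to each other, with 1 point per site. Colours give the *GFI1-36S* lists with a peak in the same region (98 in both, 1243 in no curcumin alone, 66 in curcumin alone, 1228 in neither), the dotted line marks equal folds, and most points crowd below a fold of 5 on both axes.

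At the edge of the rule the calls rested on peaks near the threshold of the lists. The weakest peaks inside it had a −log10 q of 1.36 in *GFI1-KD* no curcumin, at sites nearest *Sdccag8* and *Lrmda*, and 88 sites in all had a −log10 q under 2 in at least 1 of the lists. Just outside it, regions nearest *Alas1* and *Ankrd55* were left out for *GFI1-36N* no curcumin peaks with −log10 q of 1.31 and 1.32, and the region nearest *S100a11* for a *GFI1-KD* curcumin peak of 1.34. In all, 19 regions were left out only by peaks with −log10 q under 2. Absence of a peak is therefore a call under a threshold. At 735 sites (27.9%) a peak of a list that lacked the site lay within 1 kb of it, whereas at 831 (31.5%) no such peak lay within 10 kb.

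In the full lists, gains outnumbered losses in *GFI1-36N* and losses outnumbered gains in *GFI1-KD*. In *GFI1-36N*, 15476 of the 48710 regions of either list had a peak with curcumin alone (31.8%) and 13.7% without it alone. In *GFI1-KD*, 9.22% had a peak with curcumin alone and 14437 of 39758 (36.3%) without it alone. The *GFI1-36N* lists held 39564 peaks without curcumin and 49213 with it. The *GFI1-KD* lists held 39272 without it and 30784 with it. The mirror pattern, lost with curcumin in *GFI1-36N* and gained in *GFI1-KD*, counted 517 regions. Gains in both pairs counted 583 and losses in both 1391, while 2551 regions had a peak in both *GFI1-36N* lists alone and 425 in both *GFI1-KD* lists alone.

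When each list was limited to the same number of top peaks by −log10 p, that of the shortest of the 4 lists (30784), the counts came close together, at 1095 opposite sites against 978 mirror regions. Of the 1095 regions, 70.8% overlapped an opposite site of the full lists. Of the 2635 opposite sites, 775 remained. With the shortest of all 6 lists (20354 peaks) the counts were 554 and 517, but these were mostly other regions: 19.9% of the 554 overlapped an opposite site of the full lists, and 110 of the 2635 remained. At equal list lengths opposite sites thus still outnumbered mirror regions, by far less than in the full lists. With 30784 peaks per list, the *GFI1-36N* regions gained and lost also came close, at 19.4% and 17.3%. In *GFI1-KD*, 14.8% were gained and 25.4% lost. With −log10 q of at least 5 there were 1417 opposite sites and 554 mirror regions. Of the 1417, 56.8% overlapped an opposite site of the full lists, and 804 of the 2635 remained.

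**Figure D2:**
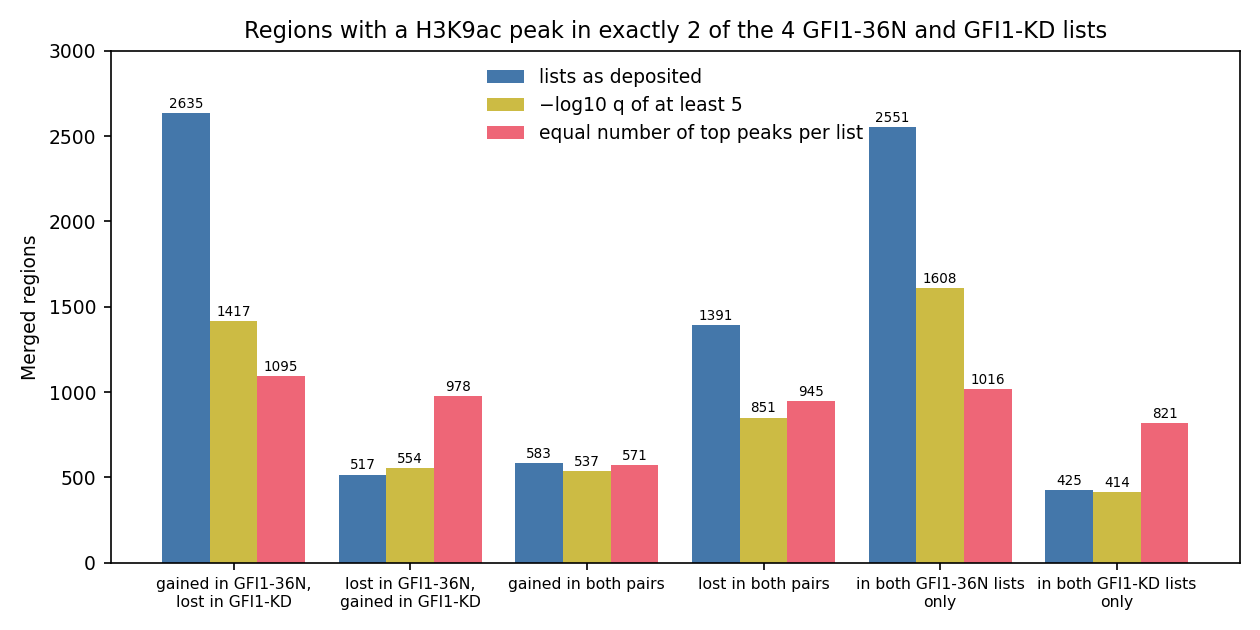
Number of merged regions (y axis, from 0) with a peak in exactly 2 of the 4 *GFI1-36N* and *GFI1-KD* lists, by pattern of gain and loss with curcumin (x axis). Bars give the lists as deposited, peaks with −log10 q of at least 5, and the top 30784 peaks of each list; the bar of opposite sites falls from 2635 to 1417 and 1095 while the mirror bar goes from 517 to 554 and 978.

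Seen from *GFI1-36N*, opposite sites were 17.0% of the 15476 regions with a peak with curcumin alone (Wilson 95% interval 16.4 to 17.6; all intervals here cover counting error only). A further 3.77% were gained in *GFI1-KD* as well, 5.61% had a peak in both *GFI1-KD* lists, and 73.6% had none there. Among the 6693 regions lost in *GFI1-36N*, 20.8% were lost in *GFI1-KD* too, and among regions with a peak in both *GFI1-36N* lists 10.5% were. These shares count regions with no *GFI1-KD* peak, which could not be lost there. Over the regions with any *GFI1-KD* peak, 64.5% of 4086 gained regions (63.0 to 65.9) were lost in *GFI1-KD*. So were 55.8% of 2495 lost regions (53.8 to 57.7), which turned the order of gained and lost regions. The share was 11.6% of 23990 regions with a peak in both *GFI1-36N* lists, and 83.1% of 9187 with a peak in neither. Gain in *GFI1-36N* and loss in *GFI1-KD* define the opposite sites, so these shares only describe the calls. A link between the calls of the pairs was not tested.

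The *GFI1-36S* lists took no part in the rule. In the *GFI1-36S* no curcumin list, 1341 opposite sites had a peak (50.9%, interval 49.0 to 52.8). The share was 51.2% over all regions of the 4 lists. Over the 8102 regions with a peak in exactly 2 of them, here and below with the opposite sites included, it was 40.6%. Among those patterns it was 42.1% for regions lost in both pairs, 36.4% for gains in both, 35.2% and 25.9% for regions of the *GFI1-36N* lists or the *GFI1-KD* lists alone, and 27.3% for the mirror. Opposite sites thus had the highest share of the 6 patterns, with an interval that overlapped none of theirs, but a share near that of all regions, of which 19775 had a peak in all 4 lists. With equal list lengths (30784 peaks) the share was 55.4%, against 23.4% for the mirror and 38.0% for all regions in exactly 2 lists.

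The *GFI1-36S* curcumin list held 164 opposite sites (6.22%, interval 5.36 to 7.21), against 6.57% of regions in exactly 2 lists and 22.5% of all regions of the 4 lists. That share did not stand apart, and 98 sites were in both *GFI1-36S* lists and 1228 (46.6%) in neither. The *GFI1-36S* curcumin list is also the shortest, with 20354 peaks, and it stood apart in its markers. A peak lay at the promoters of 16 of 18 T-cell genes there, against 7 to 10 in the other lists. It lay at 5 of 28 erythroid genes, against 14 to 27, and at 1 of 20 neutrophil genes, against 11 to 18. Monocyte and macrophage promoters had 2 of 20, against 16 to 17. Stem and progenitor promoters had 9 of 30, against 24 to 27. If the names of these lists are right and the labels wrong, the shares with and without curcumin change places.

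Presence in *GFI1-36S* went with the height of the site. When opposite sites were ordered by the lower of their percentiles in the lists of the rule and divided into 4 equal groups, 38.7% of the weakest group had a *GFI1-36S* no curcumin peak (35.1 to 42.5), then 48.0% and 50.6%, and 66.3% of the strongest (62.6 to 69.8). Where both were present, the fold in *GFI1-36S* no curcumin had a median of 3.88 (range 2.17 to 22.7), near that in the lists of the rule.

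**Figure D3:**
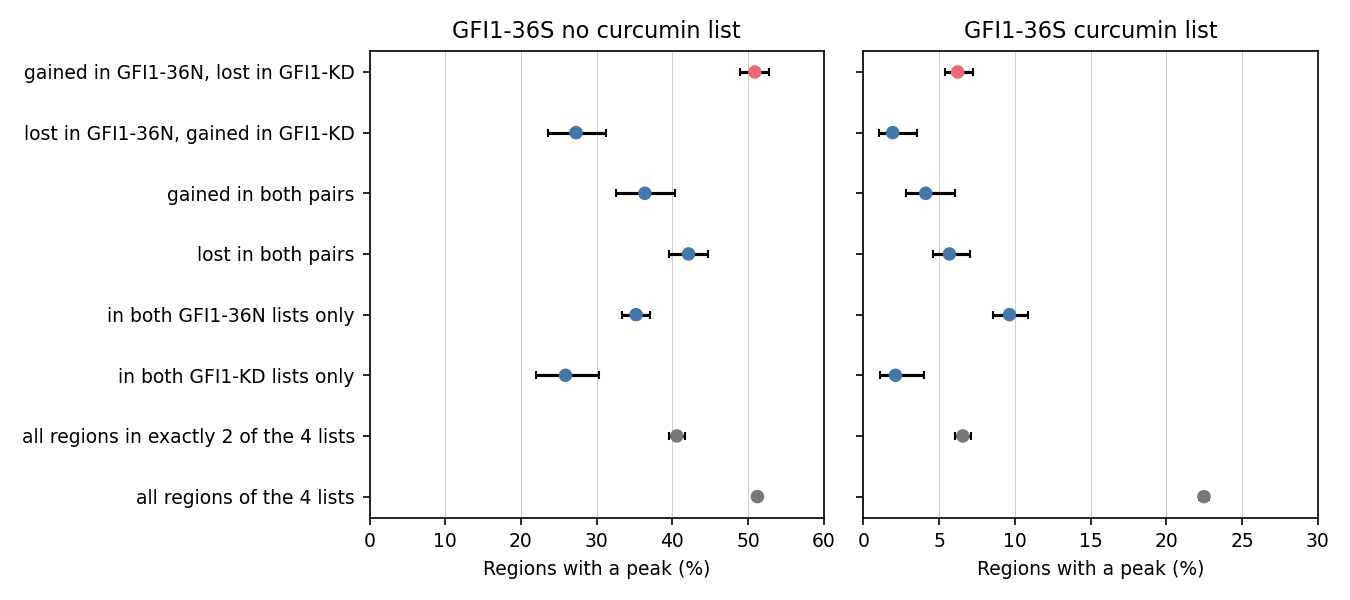
Share of regions with a peak in the *GFI1-36S* no curcumin list (left) and the *GFI1-36S* curcumin list (right), in percent with Wilson 95% intervals, for the 6 patterns and 2 backgrounds on the y axis; the x scales differ. Opposite sites (red) lie at 50.9% on the left, above the other 5 patterns (blue), and at 6.22% on the right, within their spread. Both backgrounds include the opposite sites.

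By location, 516 opposite sites (19.6%, interval 18.1 to 21.1) reached the promoter of a protein-coding gene, taken as 1 kb on each side of any transcription start site (TSS). The share was 28.6% over all regions of the 4 lists, 56.5% for regions in all 4 lists and 15.7% over regions in exactly 2 lists. Among the latter it was higher, at 22.8%, for regions of the *GFI1-KD* lists alone. It was 16.1% for losses in both pairs and 14.1% for gains in both. Regions of the *GFI1-36N* lists alone had 12.4% and the mirror 7.35%. A further 127 sites (4.82%) lay at promoters of other genes, 248 (9.41%) in exons, 1125 (42.7%) in introns and 619 (23.5%) between genes. Summits of opposite sites lay a median of 7416 bp from the nearest protein-coding TSS, against 5805 bp for all regions of the 4 lists. The median was 6408 bp for losses in both pairs, 13203 bp for the mirror and 463 bp for regions in all 4 lists. The promoter share went from 14.9% in the weakest of the 4 groups by height to 26.3% in the strongest. At equal list lengths (30784 peaks) the promoter share was 22.7%, against 35.1% for all regions of the 4 lists. It was 17.7% for regions in exactly 2 lists, 20.6% for the *GFI1-KD* lists alone and 9.82% for the mirror.

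Away from promoters, the nearest genes were mostly marked in every library, about as often as for other regions. Of the 1992 opposite sites outside promoters, 1434 (72.0%, interval 70.0 to 73.9) had a nearest gene whose promoter held a peak in all 6 lists, and 209 (10.5%) a nearest gene with no promoter peak in any. The shares were 69.2% and 11.2% over all regions of the 4 lists, and 70.0% and 10.4% over regions in exactly 2 lists. By chromosome, the share of regions that were opposite sites ran from 2.23% on chromosome 15 to 5.66% on chromosome 3.

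**Figure D4:**
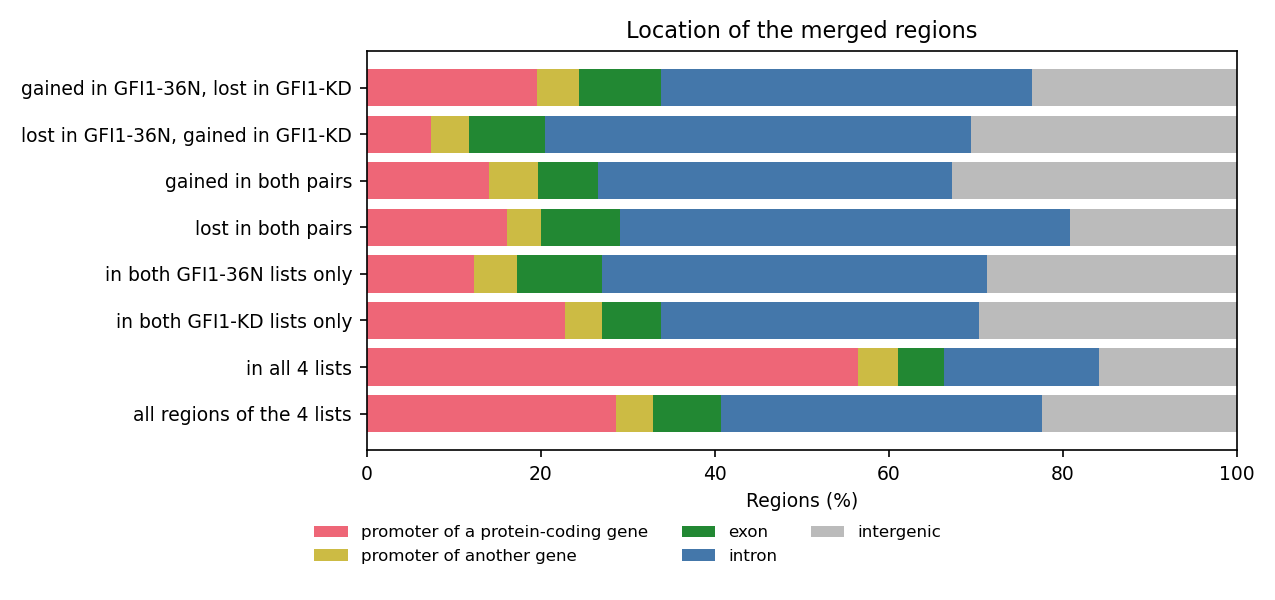
Location of the regions of each pattern, as stacked shares that add to 100% (x axis), with all regions of the 4 lists in the lowest bar. Promoters of protein-coding genes make up 19.6% of opposite sites, 22.8% of regions of the *GFI1-KD* lists alone, 7.35% of the mirror and 56.5% of regions in all 4 lists.

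The strongest opposite sites were mostly promoters. Of the 12 strongest, 9 lay at promoters of protein-coding genes and 2 at promoters of other genes. The highest was the promoter of *Eps8l1*, a relative of the actin regulator EPS8 (chr7:4460598-4461862), with a fold of 18.3 in *GFI1-36N* curcumin, 18.7 in *GFI1-KD* no curcumin, 22.7 in *GFI1-36S* no curcumin and 4.27 in *GFI1-36S* curcumin. No peak was called there in the other libraries, where the nearest lay 5152 and 14879 bp away.

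*Msantd3*, which encodes a protein with a Myb/SANT-like domain (chr4:48539829-48542372), had folds of 10.7, 18.5, 8.25 and 8.19 in the same order. *Bmpr1a*, a type I receptor for bone morphogenetic proteins (chr14:34501379-34503609), had 10.4, 11.3, 4.72 and 5.69. At both promoters the nearest peak of a list that lacked the site was more than 10 kb away. *Acpp*, prostatic acid phosphatase (chr9:104336078-104339683), had 7.76, 14.4, 7.91 and 5.88. Each of these 4 promoters was thus called in every library but those the rule left out.

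Other promoters had a *GFI1-36S* peak without curcumin alone, or none. *Mreg*, melanoregulin, an organelle transport factor (chr1:72211117-72212499), had folds of 11.6, 12.7 and 3.71 in *GFI1-36N* curcumin, *GFI1-KD* no curcumin and *GFI1-36S* no curcumin. *Myo1d*, a class I myosin (chr11:80778749-80780115), had 9.35, 14.0 and 9.09, with the nearest peak of the lists that lacked it 175771 bp away. *Tinagl1*, a matrix glycoprotein (chr4:130172333-130176013), had 7.61, 11.6 and 4.34. *Zfp111*, a zinc finger gene (chr7:24207333-24208305, window printed above), had 13.7 and 10.95 and no peak in either *GFI1-36S* list.

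The rest of the 12 included an intronic site and the promoter of *Ehhadh*. The *Gramd1b* site (chr9:40414524-40415658), in an intron of this sterol transfer protein at −13101 bp from its nearest TSS, had folds of 8.83, 12.9 and 4.19. *Ehhadh*, an enzyme of peroxisomal fatty acid oxidation (chr16:21787289-21788222), had 7.10 and 9.59 and, unlike most, a *GFI1-36S* peak with curcumin alone (3.92). Sites nearest the zinc finger gene *Zfp956* and the phosphatidylinositol transfer protein gene *Pitpnc1* lay at promoters of other genes, with folds of 9.17 and 11.5, and 7.27 and 8.60. Each also had a *GFI1-36S* no curcumin peak of 4.39.

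Among sites in neither *GFI1-36S* list, the next highest after *Zfp111* were promoters of genes of diverse function or distal sites. *Hnmt*, which inactivates histamine, had folds of 5.64 and 11.8 with the nearest peak of the lists that lacked it 132489 bp away. *Gng11*, a G protein gamma subunit, had 14.9 and 6.31. The promoter of *C530008M17Rik* had 6.27 and 7.67, and the intergenic site near *Fam25c* 10.4 and 7.54. The site nearest *Oscar*, a receptor of myeloid cells and osteoclasts, had 6.23 and 6.86. It overlapped an exon, but its summit lay outside any protein-coding gene, 20906 bp from the *Oscar* TSS. Beside the 4 already named, the strongest sites in both *GFI1-36S* lists were the promoters of *AA467197* (7.44, 7.48, 7.16 and 4.63) and *Pwp1*, a WD-repeat protein (9.35, 6.72, 3.88 and 11.2).

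Opposite sites were nearest to 2036 genes, of which 409 had at least 2 and 21 at least 5. In all, 579 sites had another within 10 kb. *Slc28a3*, a concentrative nucleoside transporter, stood out for its composition: 9 of the 12 regions nearest to it were opposite sites, spread over 74.1 kb of chromosome 13 in and beyond the gene. Of these 12 regions, 11 had a peak in *GFI1-36N* curcumin, 11 in *GFI1-KD* no curcumin and 9 in *GFI1-36S* no curcumin, against 0 in *GFI1-36N* no curcumin, 1 in *GFI1-KD* curcumin and 0 in *GFI1-36S* curcumin. The folds of the 9 sites were 2.61 to 6.40 in *GFI1-36N* curcumin and 2.62 to 4.94 in *GFI1-KD* no curcumin. The promoter of *Slc28a3* held no peak in any library.

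*Mgll*, monoacylglycerol lipase, had 8 opposite sites among 37 regions, all in its introns and none with a *GFI1-36S* peak, with folds of 3.12 to 6.06 in *GFI1-36N* curcumin and 3.30 to 5.76 in *GFI1-KD* no curcumin. *Pan3*, a subunit of the poly(A) deadenylase, had 8 among 26, all with a *GFI1-36S* no curcumin peak, although 1 of them lay within the neighbouring *Flt1*. The 2 genes therefore had the same number of sites and opposite *GFI1-36S* states. *Mpp7*, a scaffold of cell junctions, had 9 among 51. The chromatin cofactor gene *Ankrd11*, *Gse1*, the Rab GTPase-activating gene *Tbc1d8* and the tyrosine phosphatase gene *Ptpre* had 7 each, among 49, 60, 34 and 52. Unlike *Slc28a3*, these genes had promoter peaks in both lists of the rule.

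Gene lists of BM lineages were compared by the share of their regions that were opposite sites, beside 4.55% for all genes. The erythroid list stood highest: 14 of 151 regions (9.27%, interval 5.60 to 15.0), nearest to 9 of its 28 genes. The *Car2* site, upstream of this carbonic anhydrase gene (chr3:14879151-14880316), had folds of 4.50 in *GFI1-36N* curcumin, 6.02 in *GFI1-KD* no curcumin and 7.07 in *GFI1-36S* no curcumin. The site at the *Gfi1b* promoter had 3.98, 6.26 and 5.53, but peaks of both lists that lacked it lay 273 and 312 bp away. *Gata1*, the leading erythroid transcription factor, had a site at its promoter (chrX:7965985-7967855) with 3.81, 6.04 and 7.41 and a second one in an intron (window printed above) with 3.63, 3.17 and 3.88.

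The other erythroid sites lay near *Rhd*, *Hbb-bt*, *Ank1*, *Epb41*, *E2f2* and *Tspan33*, genes of the red cell surface, globin, membrane skeleton and cell cycle, and their folds in *GFI1-36N* curcumin ran from 2.48 to 3.63. *Hbb-bt* has near-identical copies, so its 2 sites are uncertain. Of the 14 sites, 11 had a *GFI1-36S* no curcumin peak and none a *GFI1-36S* curcumin peak. Erythroid promoters moved with the libraries: 23 of 28 held a peak in *GFI1-36N* no curcumin, 20 in *GFI1-36N* curcumin, 27 in *GFI1-KD* no curcumin and 14 in *GFI1-KD* curcumin. Of the erythroid regions in either *GFI1-KD* list, 110 of 138 (79.7%) had a peak without curcumin alone, beside 36.3% for all regions. Of the 81 in either *GFI1-36N* list, 23.5% were gained, beside 31.8% for all regions. More of them, 25.9%, were lost in *GFI1-36N*, beside 13.7% for all regions. The part of cell composition in these counts was not tested. At equal list lengths (30784 peaks) 3 of 111 erythroid regions were opposite sites (2.70%), beside 2.62% of all regions.

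The stem and progenitor list had 13 of 303 regions (4.29%, interval 2.52 to 7.20), close to all genes. Most lay in introns of transcription factor genes. An *Erg* site (chr16:95450481-95451301) had folds of 4.85 in *GFI1-36N* curcumin, 6.31 in *GFI1-KD* no curcumin and 4.48 in *GFI1-36S* no curcumin, with peaks of the lists that lacked it 324 and 652 bp away. A *Runx1* site (chr16:92620155-92622356) had 4.50, 6.62 and 5.23. *Myb* had 4 sites, the strongest in an intron (window printed above) with 3.46, 3.44 and 3.21, and *Fli1* and *Bcl11a* held the rest. The promoters of this list differed little between the libraries of the rule, with 25 to 27 of 30 holding a peak.

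The neutrophil list had 5 of 237 regions (2.11%, interval 0.904 to 4.84), 1 each near *Camp*, *Ly6g*, *S100a8*, *Fcnb* and *S100a9*, all between genes. The *Camp* site had folds of 3.81 in *GFI1-36N* curcumin and 5.35 in *GFI1-KD* no curcumin. Of the neutrophil regions in either *GFI1-36N* list, 79.6% had a peak with curcumin alone, beside 31.8% for all regions. In *GFI1-KD*, 54 of 85 neutrophil regions (63.5%) had a peak without curcumin alone, beside 36.3%. Fewer neutrophil regions had a peak in either *GFI1-KD* list than in either *GFI1-36N* list, where they numbered 196. The monocyte list had 2 of 136, near *Vcam1* (10.9 and 4.81), an adhesion molecule, and *F13a1*. The T-cell list had 4 of 52 (7.69%, interval 3.03 to 18.2), near *Lat* and *Cd6*, the megakaryocyte list 2 of 66, at the promoters of *Rab27b* and the integrin gene *Itga2b*, and the mast cell list 1 of 47, at the promoter of the interleukin-33 receptor gene *Il1rl1* (6.75 and 6.86). The B-cell list had 0 of 31, which allows up to 11.03%.

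Genes bound by GFI1 or partnering HOX proteins had 7 of 192 (3.65%, interval 1.78 to 7.33). The strongest lay 45983 bp from the nearest *Gfi1* TSS (chr5:107677851-107678762), with folds of 4.18, 5.08 and, in *GFI1-36S* no curcumin, 4.05. A second one lay upstream of *Gfi1*, at −5697 bp, with 2.44 and 3.13 in the lists of the rule and a higher fold of 7.76 in *GFI1-36S* curcumin. *Gfi1b* is given above, and *Socs3*, *Id2*, *Csf1* and *Spi1* had 1 each with folds under 5. Interferon-stimulated genes had 2 of 85, given by their count, and immediate early genes 3 of 176, near *Jun* and *Nr4a3*. Of the 11 lists, the interval of the erythroid list alone did not include 4.55%. It treats as independent 14 sites that lay nearest to 9 genes. With −log10 q of at least 5 the erythroid share was 6.42% (3.15 to 12.7), an interval that includes the 3.48% of all regions, and at equal list lengths the shares were 2.70% and 2.62%.

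**Figure D5:**
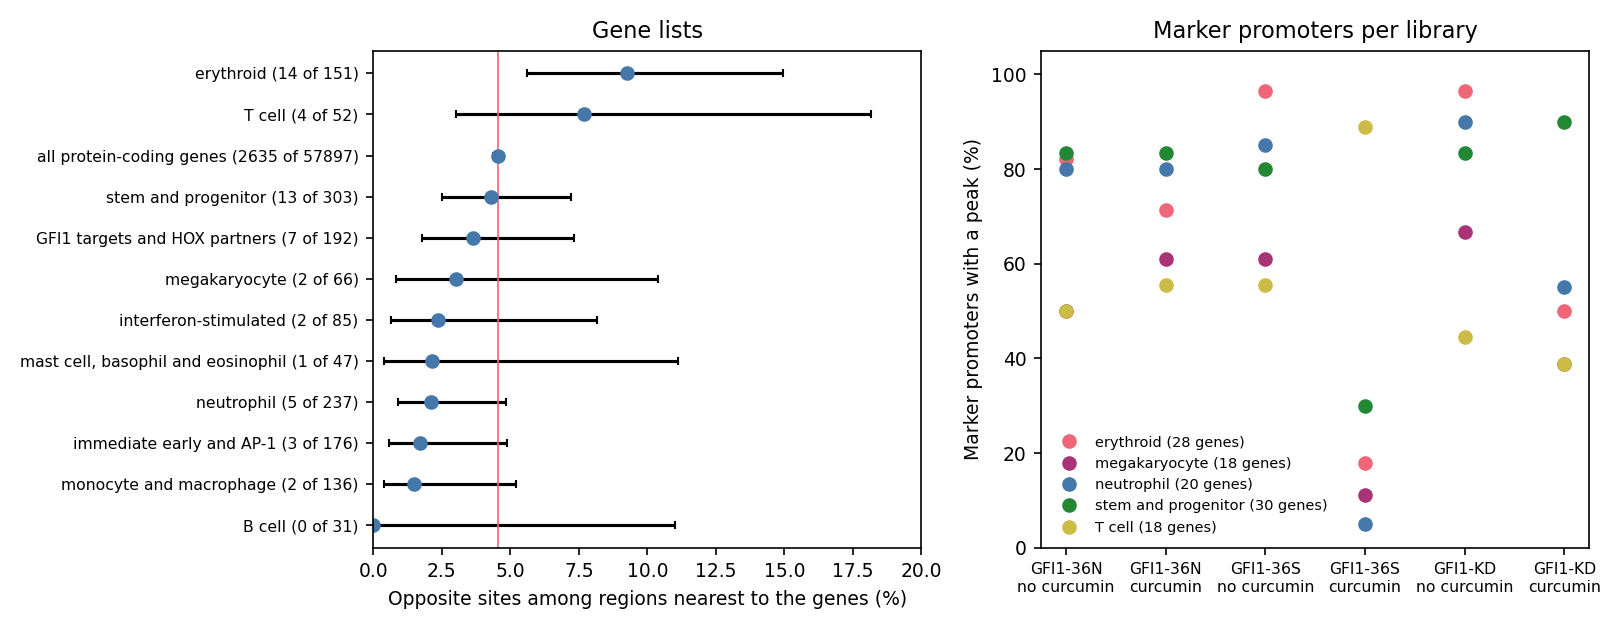
Left, share of the regions nearest to each gene list that were opposite sites (x axis, percent, Wilson 95% intervals), with a line at 4.55% for all genes; the erythroid list lies highest, at 9.27%. Right, share of marker promoters with a peak (y axis, percent) in each of the 6 libraries for 5 lists; erythroid markers are called least often in the *GFI1-36S* and *GFI1-KD* curcumin libraries.

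Each of the 9 motif shares within 100 bp of the summit lay within 2 percentage points of regions in exactly 2 lists. Those regions include the opposite sites, which draws the shares together. Within 100 bp of the summit the median GC content was 49.8%, against 49.3% for regions in exactly 2 lists, 50.7% for all regions of the 4 lists and 57.7% for regions in all 4 lists. Motifs were searched as letters on both strands. The GATA core (AGATAA) was found in 9.53% of sites (interval 8.46 to 10.7), the RUNX core (TGTGGT) in 15.7% (14.3 to 17.1), an E-box (CAGCTG) in 14.1% (12.8 to 15.5) and the ETS core (AGGAAGT) in 6.41% (5.54 to 7.41). The shares over all regions of the 4 lists were 8.08%, 14.4%, 12.9% and 6.24%, and over regions in exactly 2 lists 9.27%, 16.6%, 13.5% and 7.75%. The GATA interval did not include the share of all regions. The ETS interval did not include that of regions in exactly 2 lists. In introns and between genes alone, the GATA core was in 10.1% of opposite sites (8.76 to 11.6). The shares there were 9.82% of all regions and 9.95% of regions in exactly 2 lists. Within 250 bp of the summit the GATA core was in 25.6% (24.0 to 27.3). That interval included neither the 20.7% of all regions nor the 23.3% of regions in exactly 2 lists. Regions gained in both pairs had a similar 25.2% (21.9 to 28.9), and the other patterns 20.2% to 22.4%. In introns and between genes alone the share of opposite sites was 27.8% (25.7 to 29.9). There it was 24.9% of all regions and 25.1% of regions in exactly 2 lists. Other intervals within 250 bp also left out the share of regions in exactly 2 lists. They were ETS (17.3 to 20.2, against 21.5%), RUNX (32.4 to 36.0, against 37.1%) and the GC box (16.5 to 19.5, against 15.3%). The *Gata1* and *Myb* windows are among the few with an ETS core.

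The core bound by GFI1 and GFI1B (TAAATCA), which on the other strand reads as a composite element of HOX and PBX proteins, was in 51 opposite sites (1.94%, interval 1.48 to 2.54), beside 1.89% of all regions of the 4 lists and 3.48% of the mirror. The AP-1 element (TGANTCA) was in 5.77%, beside 5.06%, and the C/EBP element (TTGCNCA) in 8.61%, beside 8.78%. The GC box (CCGCCC) was in 8.31% of sites (7.32 to 9.43), beside 12.5% of all regions and 6.79% of regions in exactly 2 lists. Its interval included neither share. Of regions in all 4 lists, 25.5% held it. The NRF1 element (GCGCATG) was in 0.721% of opposite sites, beside 0.85% of all regions. A match is a run of letters and not a measured binding site.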

How the data were processed

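H3K9ac ChIP-seq peak lists of 6 libraries of BM cells were used. The input and rabbit IgG controls were not analysed here. The authors trimmed the reads with Trim Galore, mapped them to mm10 with BWA-MEM, called peaks per library with MACS2 and dropped ENCODE black list regions, and the control, threshold and versions are not given in the sources used here. Each deposited list gives, as MACS2 wrote it for the authors, the fold enrichment (a ratio) of a peak, its −log10 p and −log10 q, a whole-number score derived from q, and the summit offset. None of these are normalized between libraries, and the score was not used.

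Lists were merged and regions annotated with GENCODE M21 in Python 3.11.15 (numpy 2.4.6, pandas 2.3.3, scipy 1.17.1). Location was assigned in the order promoter of a protein-coding gene, promoter of another gene, exon, intron, intergenic. A region's height was its highest peak. Fragments were recovered for 96.4% to 99.9% of the peaks of a list, as whole numbers within 0.02, from the relation MACS2 uses between fold and p. A site's strength was the lower of its 2 percentiles. Named genes were those nearest to the 12 strongest sites, the 6 strongest at promoters, in neither and in both *GFI1-36S* lists, the 8 genes with most sites, and genes of the 11 lists near a site. The sites, lists and rules were chosen with earlier results of these data known. Shares carry Wilson 95% intervals, and with 1 library per group no test was run. The intervals treat regions as independent, although 579 opposite sites had another within 10 kb. The scripts were tested on simulated data. The 9 motif searches and all alternatives are described with their results.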

Additional observations from a re-analysis of the deposited data

Results flagged for a closer look

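The 2635 opposite sites were picked out because the calls moved in opposite directions in the 2 pairs: with curcumin, each of these regions gained a peak in *GFI1-36N* and lost it in *GFI1-KD*. Each direction rests on 1 library against 1, and the difference was not tested. At equal list lengths (30784 peaks) 1095 regions had this pattern and 978 the reverse of it.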

How the results depend on the processing

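The values below are in the order number of sites, promoter share, *GFI1-36S* no curcumin share, *GFI1-36S* curcumin share, median fold in *GFI1-36N* curcumin and in *GFI1-KD* no curcumin, and median distance to the TSS, where they moved past the interval of the reported value or, for the number, by over 1.5 times. With −log10 q of at least 5 they were 1417, 22.3%, 4.18 and 4.40, the shares in *GFI1-36S* and the distance staying within their intervals. With the 30784 top peaks of each list they were 1095, 22.7%, 55.4%, 9.95%, 4.33 and 4.26. With the 20354 top peaks they were 554, 29.1%, 55.1%, 17.9%, 5.93, 5.63 and 6658 bp. Keeping the highest peaks raises the folds by construction. When peaks within 500 bp were joined, the *GFI1-36S* curcumin share was 7.25% and the distance 8620 bp. Without sites that had a peak of a missing list within 1000 bp, the distance was 8376.5 bp. The promoter share was 33.4% with a window of 3000 bp, 17.8% with the summit inside the window and 24.4% for promoters of all biotypes, and the distance to a TSS of any biotype was 4709 bp. With the *GFI1-36S* treatments exchanged, 6.22% of sites were in the no curcumin and 50.9% in the curcumin list. In windows of 250 bp on each side the motif shares were 25.6% (GATA), 4.78% (GFI1), 18.7% (ETS), 34.2% (RUNX), 29.1% (E-box), 16.4% (AP-1), 22.7% (C/EBP), 17.95% (GC box) and 1.86% (NRF1), where all regions of the 4 lists had 20.7%, 5.05%, 19.2%, 33.0%, 27.3%, 14.0%, 21.9%, 24.96% and 2.82%, and the median GC content was 48.3%. In alternatives added after the data were seen, the mirror regions numbered 978 with the 30784 top peaks, and the erythroid share was 2.70% with these and 3.95% with the 20354 top peaks. The other 39 of 78 values, among them those for the merge of 4 lists and for autosomes, stayed within these limits. No paired analysis was possible because each group has 1 library and no test was made.

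The lists hold no read totals. A site of the median height rests on about 20 fragments, so a missing peak does not show that acetylation was absent.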

Other observations

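Some opposite sites were high in 1 list of the rule and near the threshold in the other. They were chosen after their values were seen. In *GFI1-36N* curcumin the site at the promoter of *Tmem178*, which encodes a membrane protein of the endoplasmic reticulum, had a fold of 18.3 against 3.30 in *GFI1-KD* no curcumin, with no *GFI1-36S* peak. The promoter of *Foxc1*, a forkhead transcription factor, had 12.98 against 3.44, and the site nearest *Ifne*, an epsilon interferon, had 14.5 against 4.81, with 14.0 in *GFI1-36S* no curcumin.

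The reverse was seen at the site nearest *Sdccag8*, a centrosomal protein gene, with 19.4 in *GFI1-KD* no curcumin against 3.29 in *GFI1-36N* curcumin and 8.17 in *GFI1-36S* no curcumin. The promoter of *Sox6*, a transcription factor of red cell maturation, had 11.6 against 3.01, with 7.91 in *GFI1-36S* no curcumin. The lists are not normalized to each other, and none of these differences was tested.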
